A study of Mus musculus with 6 samples.

Results

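The genes described here are 10 receptors and signalling proteins that damp or tune the antigen response of B cells. They were taken by gene symbol from the deposited table, and all 10 were found among its 19680 genes: Fcgr2b, Fcer2a, Fcrl1, Fcrl5, Fcrla, Cd22, Siglecg, Cd72, Btla and Ptpn6. The RNA came from splenic B cells of the germinal center (GC), sorted as B220+ CD38- FAS+, and was sequenced in bulk. The tested libraries, called cKO, came from C57BL/6 mice with the genotype Senp1flox/flox Cγ1-Cre, and the WT libraries from C57BL/6 mice with the genotype Senp1flox/flox, with 3 libraries in each group. All mice were 6 to 8 weeks old and carried loxP-flanked Senp1, so the WT mice are floxed mice without Cre. Every mouse received 100 µg of the hapten-protein antigen NP-CGG by the intraperitoneal route, and the cells were taken on day 14. Cγ1-Cre is driven from the Ighg1 locus, which B cells transcribe after activation, and no mice with Cre and unfloxed Senp1 were analysed here. Senp1 encodes a SUMO protease, and the comparison asks which transcripts differ once it is deleted.

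When antigen crosslinks the B cell receptor, kinases such as Lyn phosphorylate tyrosines in both activating and inhibitory chains. Inhibitory receptors carry a short tyrosine motif, the ITIM, in their cytoplasmic tail. Once phosphorylated, the ITIM recruits phosphatases: SHP-1, encoded by Ptpn6, is recruited by CD22, CD72 and BTLA, while the IgG receptor FcγRIIB acts mainly through the lipid phosphatase SHIP-1, encoded by Inpp5d. In the germinal center these receptors raise or lower the signal that B cells draw from antigen held as immune complexes.

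Before a start site, the stretch that holds the core promoter was read for all 10 genes and is printed for 3 of them. Ptpn6 is shown because its groups did not overlap, Fcer2a because it had the largest estimated difference among the well-covered genes, and Fcrla because its estimated difference was the smallest. The 250 bases before each start are from RefSeq on GRCm38.p6, read 5′ to 3′ on the gene's own strand, which is the minus strand for all 3. Capitals mark the E-box CANNTG and the TATA box TATAAA, searched on both strands, and no capitals overlap.
Ptpn6 (chr6:124738710-124738959): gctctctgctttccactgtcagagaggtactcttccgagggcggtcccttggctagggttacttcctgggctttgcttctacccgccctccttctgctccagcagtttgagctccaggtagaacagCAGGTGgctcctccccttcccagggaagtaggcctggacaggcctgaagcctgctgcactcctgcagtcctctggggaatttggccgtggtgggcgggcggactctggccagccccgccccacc
Fcer2a (chr8:3694175-3694424): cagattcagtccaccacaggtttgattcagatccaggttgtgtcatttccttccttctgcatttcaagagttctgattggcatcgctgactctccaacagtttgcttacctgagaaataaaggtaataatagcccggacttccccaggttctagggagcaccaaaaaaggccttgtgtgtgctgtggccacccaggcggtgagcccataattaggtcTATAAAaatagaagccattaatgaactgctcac
Fcrla (chr1:170927584-170927833): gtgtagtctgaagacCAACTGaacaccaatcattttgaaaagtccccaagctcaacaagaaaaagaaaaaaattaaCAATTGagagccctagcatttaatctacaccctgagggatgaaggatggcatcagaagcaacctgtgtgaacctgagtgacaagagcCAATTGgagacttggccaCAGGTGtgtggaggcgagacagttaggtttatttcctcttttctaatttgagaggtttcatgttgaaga
The Ptpn6 window holds 1 E-box that begins 124 bases before the start. The Fcer2a window holds a TATAAA that begins 33 bases before the start, and no E-box. Fcer2a has 3 listed starts, and the one nearest the annotated 5′ end of the gene was read. Which start these cells use was not tested. The Fcrla window holds 4 E-boxes, the nearest 69 bases before the start. Over all 10 genes, 7 windows hold an E-box, against 66.2% of the 32841 RefSeq windows of this length, and 3 hold TATAAA, against 12.4%. Besides that of Fcer2a, the TATAAA matches begin 193 bases before the start in Fcrl1 and 171 bases before it in Fcrl5. The Fcrl5 match is on the opposite strand. The octamer ATGCAAAT and GCGTGAC, a core of the binding motif of PAX5 (the factor named in the series title), were in 0 of the 10 windows, against 1.6% and 1.78% of all windows. These matches describe letters only.

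The libraries held 9657005, 3019152 and 3082897 reads on genes in cKO replicates 1 to 3 and 10339054, 5160902 and 6528052 in WT replicates 1 to 3, so a gene of low count is measured least precisely in cKO replicates 2 and 3. Values are normalized counts, that is reads divided by the authors' size factor per library, and means carry the SD over the 3 libraries of a group (n = 3). Whether every library is from its own mouse is not stated in the labels, and the p-values then reflect library-to-library spread only, which may be technical. Senp1 measured 373, 425 and 398 in cKO replicates 1 to 3, against 915, 868 and 891 in WT replicates 1 to 3. Its log2 fold change was -1.16 ± 0.12 (SE) with a limma adjusted p of 0.111, and it is -1.17 with an adjusted p of 2.38e-09 in the authors' deposited table. Mitochondrial genes took 3.66%, 12.3% and 19.1% of reads in cKO replicates 1 to 3, against 2.71%, 7.92% and 9.83% in WT replicates 1 to 3, and their part in the differences below was not tested. Replicate 1 of both groups stood apart on the first principal component (33.2% of the variance), at -49.1 in cKO and -54.4 in WT, while the other 4 libraries lay between -10.1 and 56.2. Differences are therefore also given within replicate 1 and within replicates 2 and 3. The sort gene Ptprc (B220) measured 6831 ± 1243 in cKO and 7584 ± 994 in WT, Fas 537 ± 75.3 in cKO and 556 ± 41.5 in WT, and Cd38, the excluded marker, 94.1 ± 67.7 in cKO and 71.0 ± 34.5 in WT. Among 10 GC B markers the most abundant, Nuggc, S1pr2 and Gcsam, were present in all 6 libraries at 1040 or more.

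None of the 10 genes passed the test, and 9 of their 10 confidence intervals included no difference. Each had a higher mean in cKO than in WT and a positive log2 fold change, against 49.8% of all genes tested, but the sign of Fcrl1, Fcrla, Cd72 and Btla turned negative when libraries were scaled by their totals, and that of Fcrla also with TMM scaling. Library totals lowered all genes alike, with a median over all genes of -0.078, so these turns of sign carry no information on the 4 genes relative to the rest. The median log2 fold change was 0.23 over the 10 genes, against -0.0019 over all 14678 genes tested. The 10 genes share the same libraries and are not replicates. Their median log2 deviation was -0.14, 0.18 and 0.43 in cKO replicates 1 to 3, against -0.35, -0.18 and 0.14 in WT replicates 1 to 3. These library medians overlapped between groups, with an SD of 0.26 within a group. Like them, the mitochondrial share of reads was lowest in WT replicate 1 (2.71%) and highest in cKO replicate 3 (19.1%), and its part in the medians was not tested. The median log2 fold change of the 10 was 0.38 without cKO replicate 1, 0.39 without WT replicate 3 and 0.14 without cKO replicate 3. Limma's moderated test called 0 of the 10 at a Benjamini-Hochberg adjusted p under 0.05, where 0% of all genes were called (adjusted p of 0.915 to 0.997). edgeR and DESeq2 on the recovered reads also called 0 of the 10. At an unadjusted p under 0.05 limma, edgeR and DESeq2, all on the same 6 libraries, each found 1 of the 10, Siglecg. Limma found 5.15% of all genes in either direction, with 2.98% in the higher and 2.17% in the lower direction. The share in either direction was 5.66% of the genes fitted by edgeR and 2.84% of those fitted by DESeq2. The limma count among the 10 was 4 without cKO replicate 1, beside 9.26% of all genes, and 2 without WT replicate 3, beside 4.03%. It was 0 without any one of cKO replicate 2, cKO replicate 3, WT replicate 1 or WT replicate 2, beside 2.34% to 4.96% of all genes. Separation without overlap was seen in 1 of the 10, Ptpn6, beside 6.28% of all genes higher and 5.28% lower in cKO without overlap. A count of 1 in 10 is read here against those shares and is not a result about the genes as a group.

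**Figure D1:**
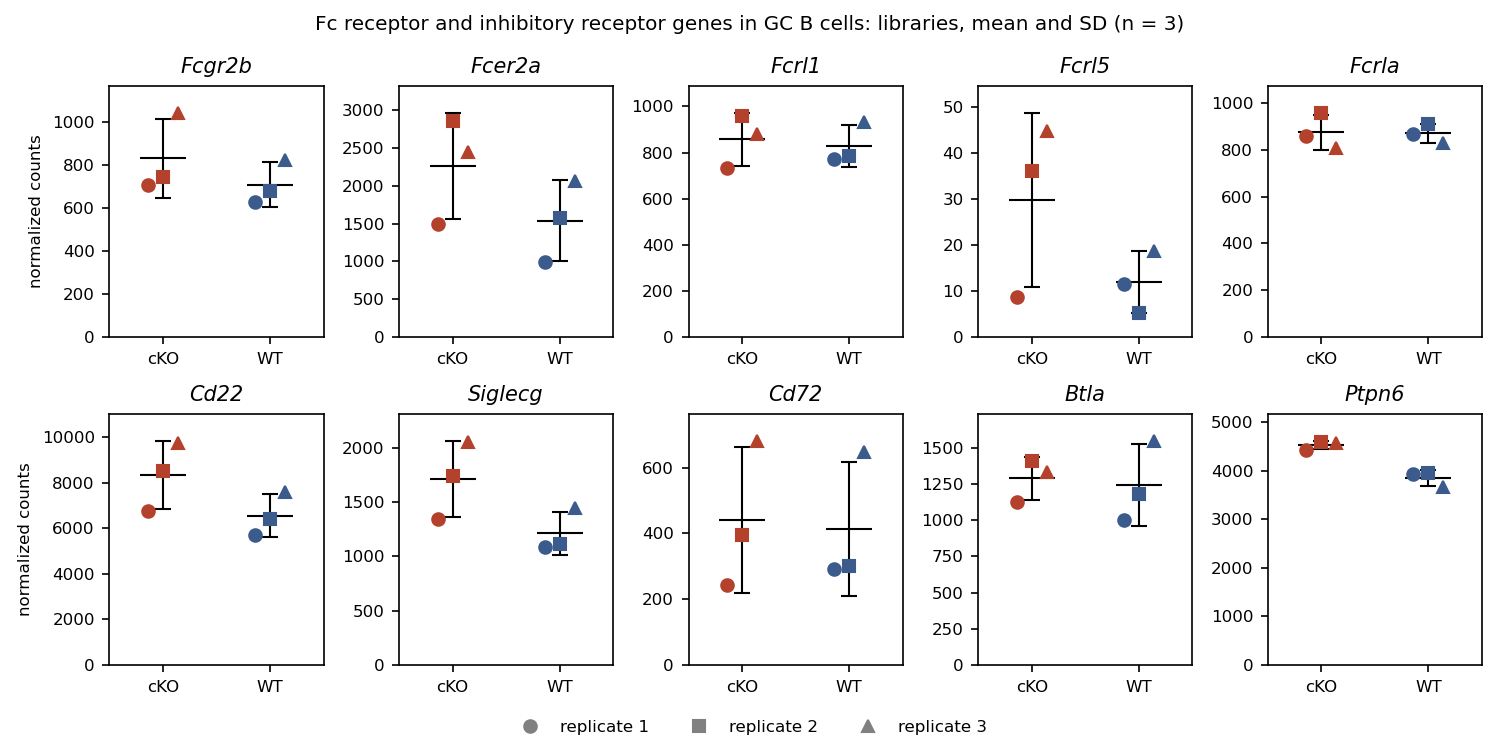
Normalized counts of the 10 genes in each library (y axis from 0), cKO at the left and WT at the right of each panel. Points are libraries, with the shape giving the replicate number, and black bars give mean and SD (n = 3). Ptpn6 is the 1 panel in which all cKO points (4437 to 4593) lie above all WT points (3668 to 3953), while Cd72 is high in replicate 3 of both groups.

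Fcgr2b and Fcer2a encode the classical Fc receptors of B cells. Fcgr2b, on chromosome 1 at 170958617 to 170976547 of GRCm38 (minus strand), encodes FcγRIIB, the inhibitory receptor for IgG. It measured 706, 746 and 1042 normalized counts in cKO replicates 1 to 3, against 626, 677 and 824 in WT replicates 1 to 3. The highest library was cKO replicate 3, and WT replicate 3 exceeded the other cKO libraries, so the groups overlapped. The means were 831 ± 184 in cKO and 709 ± 103 in WT, a log2 fold change of 0.22 ± 0.18 (SE) with a 95% confidence interval of -0.20 to 0.63 and a limma adjusted p of 0.930. The estimate was 0.043 without cKO replicate 3 and 0.33 without WT replicate 3. Replicate 1 alone gave 0.17, and replicates 2 and 3 gave 0.24. Fcgr3, a neighbouring activating IgG receptor of similar sequence that myeloid cells carry, reached at most 8.68 normalized counts in any library, and how reads matching both genes were counted is not known.

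Fcer2a encodes CD23, the low-affinity receptor for IgE, a C-type lectin that resting follicular B cells display and most GC B cells carry at a low level. It lies on chromosome 8 at 3681737 to 3694175 (minus strand), directly after the TATA-containing window printed above. It measured 1495, 2856 and 2443 in cKO replicates 1 to 3, against 988, 1572 and 2062 in WT replicates 1 to 3. The lowest library was WT replicate 1 and the highest cKO replicate 2, and cKO replicate 1 lay below 2 of the WT libraries. The means were 2265 ± 698 in cKO and 1541 ± 538 in WT, a 1.48-fold difference (log2 0.57 ± 0.31 SE, 95% interval -0.13 to 1.27, limma adjusted p = 0.915). Replicate 1 gave a log2 difference of 0.60 and replicates 2 and 3 gave 0.55. Leaving out WT replicate 1 gave 0.28, and leaving out cKO replicate 2 gave 0.37.

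Markers of naive or memory B cells were high and low in many of the same libraries as Fcer2a, and 13 of 13 had positive log2 fold changes, with a median of 0.84. The summed level of 13 such markers (Cr2, Foxp1 and others, with no gene of the 10 among them) was 3355 to 10139 in cKO and 2125 to 4907 in WT. It was highest in cKO replicate 2 and lowest in WT replicate 1, the same libraries that held the highest and lowest Fcer2a. The part of these cells in the Fcer2a difference was not tested. In bulk RNA, more cells of a type and more transcript per cell cannot be told apart. Follicular dendritic cells also carry CD23 and FcγRIIB: their 8 measured markers summed to 51.1 to 123 in cKO and 43.0 to 58.1 in WT. Among these markers Vcam1 reached 77.8 in cKO replicate 2, Mfge8 35.0 in WT replicate 3 and Clu 9.49 in cKO replicate 2. C4b reached 6.57 in WT replicate 1, and Cxcl13 and Madcam1 at most 4.34 in any library. The part of these cells in the Fcer2a and Fcgr2b values was not tested.

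The Fc receptor-like genes resemble Fc receptors in sequence, and in the positions below Fcrl1 and Fcrl5 are near each other on chromosome 3 and Fcrla is near Fcgr2b on chromosome 1. Fcrl1, an activating co-receptor of B cells (chromosome 3, 87376387 to 87402934, plus strand), measured 734, 958 and 880 in cKO replicates 1 to 3, against 771, 784 and 933 in WT replicates 1 to 3. The groups were interleaved, with means of 858 ± 114 in cKO and 829 ± 89.9 in WT. Its log2 fold change was 0.045 ± 0.15 (SE; 95% interval -0.29 to 0.38), which leaves room for a difference of up to 1.30-fold. Its sign turned without cKO replicate 2 (-0.040) or WT replicate 1 (-0.0045) and within replicate 1 (-0.072).

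Fcrla encodes an Fc receptor-like protein that stays inside the cell and is made by GC B cells. It lies on chromosome 1 at 170917576 to 170927583 (minus strand). It measured 856, 957 and 807 in cKO replicates 1 to 3, against 868, 910 and 829 in WT replicates 1 to 3. These were among the most even values of the 10 genes: the coefficient of variation was 8.74% in cKO and 4.69% in WT. The log2 fold change was 0.0045 (95% interval -0.28 to 0.29, limma adjusted p = 0.997), and its sign turned without cKO replicate 2 (-0.063) or WT replicate 3 (-0.029) and within replicate 1 (-0.020). The predicted gene Gm2962 overlaps Fcrla on the same strand and held at most 7.59 normalized counts in a library.

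Fcrl5, which in mice marks marginal zone and B-1 B cells (chromosome 3, 87435773 to 87500678, plus strand), was the 1 gene of the 10 at low level. It rested on 16, 19 and 22 reads in cKO replicates 1 to 3 and on 23, 5 and 22 reads in WT replicates 1 to 3. In normalized counts these were 8.68, 36.1 and 44.9 in cKO, against 11.6, 5.32 and 18.8 in WT. cKO replicates 2 and 3 were highest and WT replicate 2 lowest, while cKO replicate 1 lay inside the WT range. Exact Poisson 95% intervals, which cover counting error only, were 21.7 to 56.3 for cKO replicate 2 and 1.73 to 12.4 for WT replicate 2. The log2 fold change was 1.13 ± 0.67 (SE), with an interval of -0.41 to 2.66 and a limma adjusted p of 0.926. Within replicate 1 it was -0.38 and within replicates 2 and 3 it was 1.88, so the sign differed between them. It ranged from 0.69 without WT replicate 2 to 1.82 without cKO replicate 1, and was 0.70 without cKO replicate 3.

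Cd22 and Siglecg encode sialic acid-binding lectins of the Siglec family, which inhibit the B cell receptor through ITIMs. Cd22 (chromosome 7, 30865402 to 30880342, minus strand), whose product binds α2,6-linked sialic acid, measured 6767, 8507 and 9768 in cKO replicates 1 to 3, against 5694, 6405 and 7577 in WT replicates 1 to 3. WT replicate 3 exceeded cKO replicate 1, and otherwise the cKO libraries were higher. The means were 8347 ± 1507 in cKO and 6559 ± 951 in WT, a 1.27-fold difference (log2 0.34 ± 0.19 SE, 95% interval -0.083 to 0.77, limma adjusted p = 0.915). Replicate 1 gave a log2 difference of 0.25, replicates 2 and 3 gave 0.39, and all libraries but cKO replicate 3 gave 0.22.

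Siglecg, best known for restraining calcium signals in B-1 cells (chromosome 7, 43408204 to 43418358, plus strand), gave the smallest unadjusted p of the 10. It measured 1348, 1744 and 2053 in cKO replicates 1 to 3, against 1083, 1119 and 1443 in WT replicates 1 to 3. Only cKO replicate 1 and WT replicate 3 overlapped. The means were 1715 ± 353 in cKO and 1215 ± 198 in WT, a 1.40-fold difference with a log2 fold change of 0.49 ± 0.19 (SE) and a 95% interval of 0.063 to 0.91. Limma gave an unadjusted p of 0.0290 (0.0023 to 0.113 over the alternatives) and an adjusted p of 0.915, and in the authors' deposited table the adjusted p is 0.900 for Siglecg and 0.9996 for the other 9 genes. The estimate was 0.32 within replicate 1 and 0.57 within replicates 2 and 3, and ranged from 0.35 to 0.65 with single libraries left out.

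Over the 6 libraries Cd22 and Siglecg followed each other more closely than either followed another of the 10. Their log2 deviations from their own means differed by a root mean square of 0.087, and in both genes the libraries stood in the same order, from WT replicate 1 as the lowest to cKO replicate 3 as the highest. Among 6720 other protein-coding genes with a mean of at least 100 normalized counts, 0.179% lay closer to Cd22 and 0.134% closer to Siglecg than this. The closest were Dicer1 to Cd22 (0.062) and Dtx3 to Siglecg (0.059). By the same measure the closest genes were Abcc1 to Fcgr2b (0.038), Kdm6b to Fcer2a (0.064), N4bp1 to Fcrl1 (0.034), Plac8 to Fcrl5 (0.40) and Ift20 to Fcrla (0.029). Nfil3 was closest to Cd72 (0.075), Bfar to Btla (0.042) and Poldip2 to Ptpn6 (0.028). With 6 libraries that share depth and composition, such likeness is a description of these libraries. The order of Cd22 and Siglecg was near that of the mitochondrial share of reads, from 2.71% in WT replicate 1 to 19.1% in cKO replicate 3. Only WT replicate 2 (7.92%) and cKO replicate 1 (3.66%) changed places, and the part of this share was not tested.

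Cd72 encodes a lectin-like receptor with an ITIM whose ligand is the semaphorin CD100, encoded by Sema4d. The gene lies on chromosome 4 at 43446462 to 43454628 (minus strand). It measured 242, 397 and 682 in cKO replicates 1 to 3, against 292, 300.2 and 648 in WT replicates 1 to 3. The values were high in replicate 3 of both groups and lowest in cKO replicate 1, so the spread within a group was far larger than the difference between groups. The means were 440.4 ± 223 in cKO and 413 ± 204 in WT, with a log2 fold change of 0.069 ± 0.41 (SE) and a 95% interval of -0.86 to 1.00. Its sign turned without cKO replicate 3 (-0.31), WT replicate 1 (-0.13) or WT replicate 2 (-0.11) and within replicate 1 (-0.27). Light zone markers, 14 genes of B cells that have just met antigen and T cell help, summed to 8659 to 13075 in cKO and 7743 to 13664 in WT. Their sum was also lowest in replicate 1 within each group. In WT it was 9025 in replicate 2 and 13664 in replicate 3. In cKO it was nearly equal in replicates 2 and 3, at 12996 and 13075, where Cd72 measured 397 and 682. The part of these markers in the Cd72 values was not tested. Tesk1 overlaps Cd72 on the opposite strand and measured 146 ± 26.2 in cKO and 145 ± 19.7 in WT, and no source used here gives the strand setting of the counting.

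Btla encodes an ITIM receptor whose ligand is the TNF receptor family member HVEM, encoded by Tnfrsf14. The gene lies on chromosome 16 at 45224315 to 45257670 (plus strand). It measured 1123, 1410 and 1334 in cKO replicates 1 to 3, against 999, 1179.6 and 1549.7 in WT replicates 1 to 3. The highest and the lowest library were both WT. The means were 1289 ± 149 in cKO and 1243 ± 281 in WT, with a log2 fold change of 0.070 ± 0.18 (SE) and a 95% interval of -0.34 to 0.48. Its sign turned without WT replicate 1 (-0.076). T cells also express Btla: 10 T cell markers summed to 531 to 1699 in cKO and 656 to 723 in WT. Outside cKO replicate 2 most of each sum was Lck. It measured 563, 691 and 470 in cKO replicates 1 to 3, against 484, 574 and 498 in WT replicates 1 to 3. Cd3e, a chain of the T cell receptor complex, measured 27.1, 140 and 6.13 in cKO replicates 1 to 3, against 20.7, 12.8 and 5.98 in WT replicates 1 to 3. cKO replicate 2 held the most T cell transcripts and the most Btla among the cKO libraries. The other libraries did not follow this: WT replicate 3 had the most Btla of all (1549.7), with the lowest T cell sum among the WT libraries (656). cKO replicate 3 had the lowest T cell sum (531) and more Btla than cKO replicate 1. The part of T cells in the Btla values was not tested.

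Ptpn6 encodes SHP-1, the tyrosine phosphatase that ITIM receptors bring to the B cell receptor. The gene lies on chromosome 6 at 124720707 to 124738714 (minus strand), and the window before its start with a single E-box is printed above. It measured 4437, 4593 and 4575 in cKO replicates 1 to 3, against 3936, 3953 and 3668 in WT replicates 1 to 3. Every cKO library was above every WT library, and the spread was small, with a coefficient of variation of 1.88% in cKO and 4.14% in WT. The means were 4535 ± 85.2 in cKO and 3852 ± 159 in WT, a 1.18-fold difference. The log2 fold change was 0.24 ± 0.12 (SE), with a 95% interval of -0.042 to 0.51. Limma, which draws the spread of each gene towards that of genes of like level, gave an unadjusted p of 0.087 (0.0435 to 0.351 over the alternatives). The limma adjusted p was 0.915. The estimate was 0.17 within replicate 1 and 0.27 within replicates 2 and 3, stayed between 0.20 and 0.26 with single libraries left out, and was 0.16 with library totals as the scaling. Myeloid cells also express Ptpn6: 10 macrophage markers summed to 306 to 490 in cKO and 132 to 315 in WT, with 9 of 10 log2 fold changes positive and a median of 0.49. Their most abundant gene, Lyz2, measured 155, 169 and 194 in cKO replicates 1 to 3, against 189, 88.4 and 27.3 in WT replicates 1 to 3, and the part of these cells in the Ptpn6 values was not tested.

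**Figure D2:**
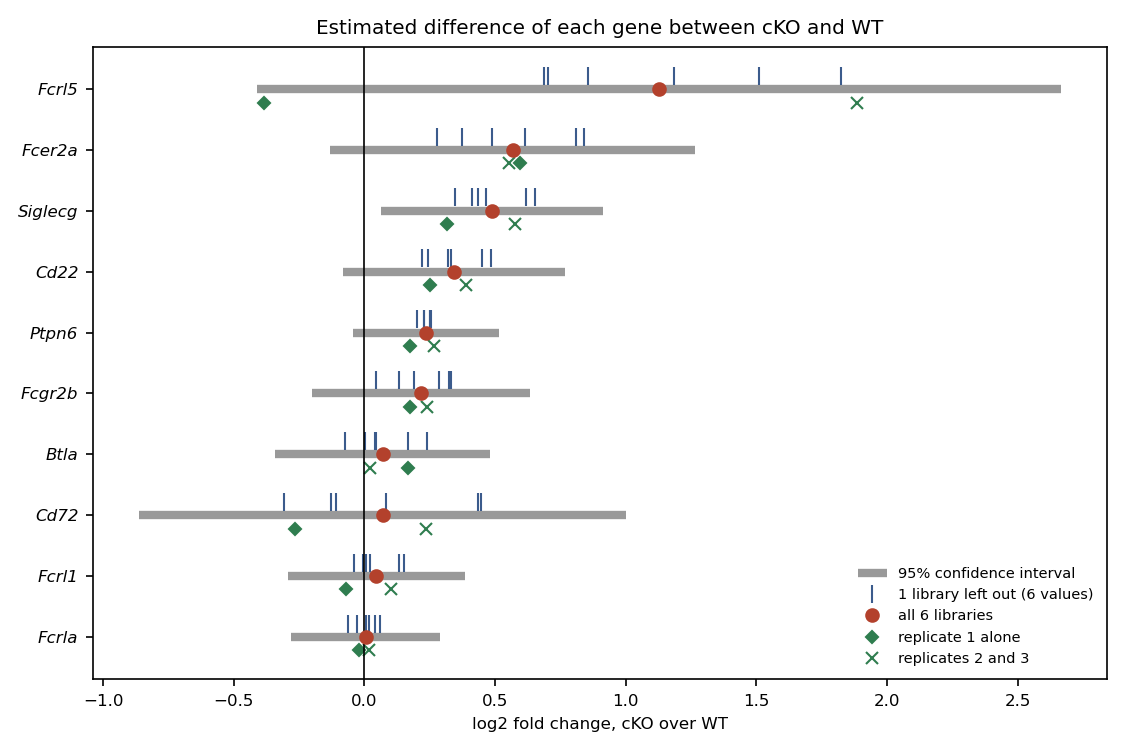
Log2 fold change of cKO over WT for each of the 10 genes (x axis), with the 95% confidence interval as a gray bar, the value with each library left out as blue ticks, and the differences within replicate 1 and within replicates 2 and 3 in green. Only the interval of Siglecg (0.063 to 0.91) lies above 0, and the estimates of Fcrl1, Fcrla, Cd72 and Btla lie between 0.0045 and 0.070 with left-out values on both sides of 0.

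Scaled by length, the genes spanned a wide range of levels. Per kilobase of annotated exon, Ptpn6 averaged 1619 normalized counts in cKO and 1375 in WT, and Cd22 1655 in cKO and 1301 in WT. These neighbours in the order did not differ beyond their spread, since each was above the other in 3 of the 6 libraries, and both exceeded all other members in every library. Next came Fcer2a at 732 in cKO and 498 in WT and Fcrla at 500.4 in cKO and 498 in WT, again each above the other in 3 libraries. Btla stood at 380 in cKO and 366 in WT and Siglecg at 357 in cKO and 253 in WT, and Btla exceeded Siglecg in 5 of 6 libraries. Siglecg in turn exceeded Fcrl1 (241 in cKO and 233 in WT) in 6 of 6. Fcgr2b at 144 in cKO and 122 in WT exceeded Cd72 at 129 in cKO and 121 in WT in 4 of 6. Fcrl5, at 8.59 in cKO and 3.42 in WT, was below the rest in every library. Lengths are the union of exons in GENCODE M21, so a gene whose B cell transcript is short is understated.

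**Figure D3:**
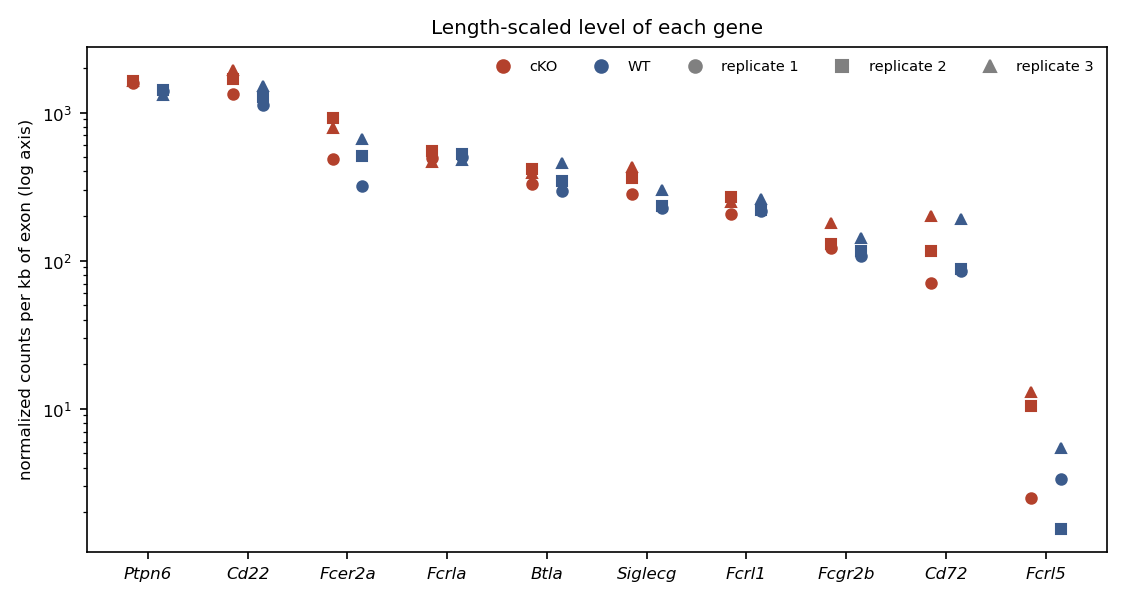
Normalized counts per kilobase of annotated exon for the 10 genes on a log axis, ordered by mean level, with cKO in red at the left and WT in blue at the right of each gene and the point shape giving the replicate number. Ptpn6 and Cd22 lie highest (1129 to 1937 over all libraries), and Fcrl5 lies lowest (1.53 to 12.9).

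The proteins that carry the inhibitory signal onward had no common direction. Of 16 such genes 0 were called, with 9 positive and 7 negative log2 fold changes and a median of 0.041. Ubash3b, a phosphatase that dampens Syk, measured 128, 85.4 and 96.0 in cKO replicates 1 to 3, against 48.0, 59.6 and 50.4 in WT replicates 1 to 3, and did not overlap (log2 fold change 0.94 ± 0.24 SE, limma adjusted p = 0.915). Pag1, the membrane anchor of the inhibitory kinase Csk, had lower values in all cKO libraries at 885 ± 56.2 in cKO and 1135 ± 118 in WT (-0.36 ± 0.13 SE). The ubiquitin ligase Cbl measured 711 ± 23.4 in cKO and 1045 ± 322 in WT, and the lipid phosphatase Inppl1 219 ± 33.9 in cKO and 170 ± 32.3 in WT, both with overlap.

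Among further Fc receptor genes, Fcmr was the abundant one. It encodes the receptor for IgM and measured 1617, 2111 and 1379 in cKO replicates 1 to 3, against 1046, 1263 and 1365 in WT replicates 1 to 3. The groups did not overlap, though cKO replicate 3 and WT replicate 3 were close, and the log2 fold change was 0.46 ± 0.18 (SE; limma adjusted p = 0.915). Of 13 measured genes of this list, 9 could be tested, with 0 called, 7 positive, and a median of 0.25. The neonatal Fc receptor gene Fcgrt measured 28.2 ± 21.8 in cKO and 13.3 ± 6.60 in WT, and Fcrlb 4.71 ± 4.23 in cKO and 1.41 ± 1.29 in WT. Of 13 other inhibitory receptors, 0 were called, 10 had positive log2 fold changes and the median was 0.44. The 4 with the smallest unadjusted p were of low level. Pirb measured 52.5 ± 21.8 in cKO and 38.9 ± 23.3 in WT, Cd300lf 33.9 ± 20.0 in cKO and 20.4 ± 14.0 in WT, Cd300a 11.9 ± 4.08 in cKO and 7.90 ± 6.29 in WT, and Lair1 6.39 ± 3.53 in cKO and 3.31 ± 1.09 in WT.

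The ligands of these receptors had no common direction. Of 10 genes for ligands and for the protease that sheds CD23, 0 were called, 5 had positive and 5 negative log2 fold changes and the median was -0.049. Sema4d, the CD72 ligand, measured 1764 ± 342 in cKO and 2148 ± 149 in WT, and Adam10, the protease that cleaves CD23, 735 ± 117 in cKO and 889 ± 123 in WT, with overlap in both. Cr2, a complement receptor that can bind CD23 in humans, measured 2222 ± 355 in cKO and 1565 ± 529 in WT, and is also one of the naive or memory B markers. Tnfsf14, a second ligand of HVEM, measured 17.9 ± 4.90 in cKO and 6.86 ± 4.75 in WT without overlap, at a low level.

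On the activating side of the receptor, 0 of 21 genes were called, 12 log2 fold changes were positive and 9 negative, and the median was 0.012. The tetraspanin Cd81 measured 611, 539 and 535 in cKO replicates 1 to 3, against 728, 656 and 661 in WT replicates 1 to 3, and was lower in all cKO libraries (log2 fold change -0.28 ± 0.13 SE). The kinase Fyn measured 380.4 ± 55.3 in cKO and 527 ± 83.4 in WT, also without overlap. The limma adjusted p was 0.915 for both. Over the 69 tested genes of these 5 lists, 7 had an unadjusted p under 0.05, 4 higher and 3 lower, beside 5.15% of all genes, and 12 did not overlap between the groups, 6 in each direction, beside 11.6% of all genes.

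**Figure D4:**
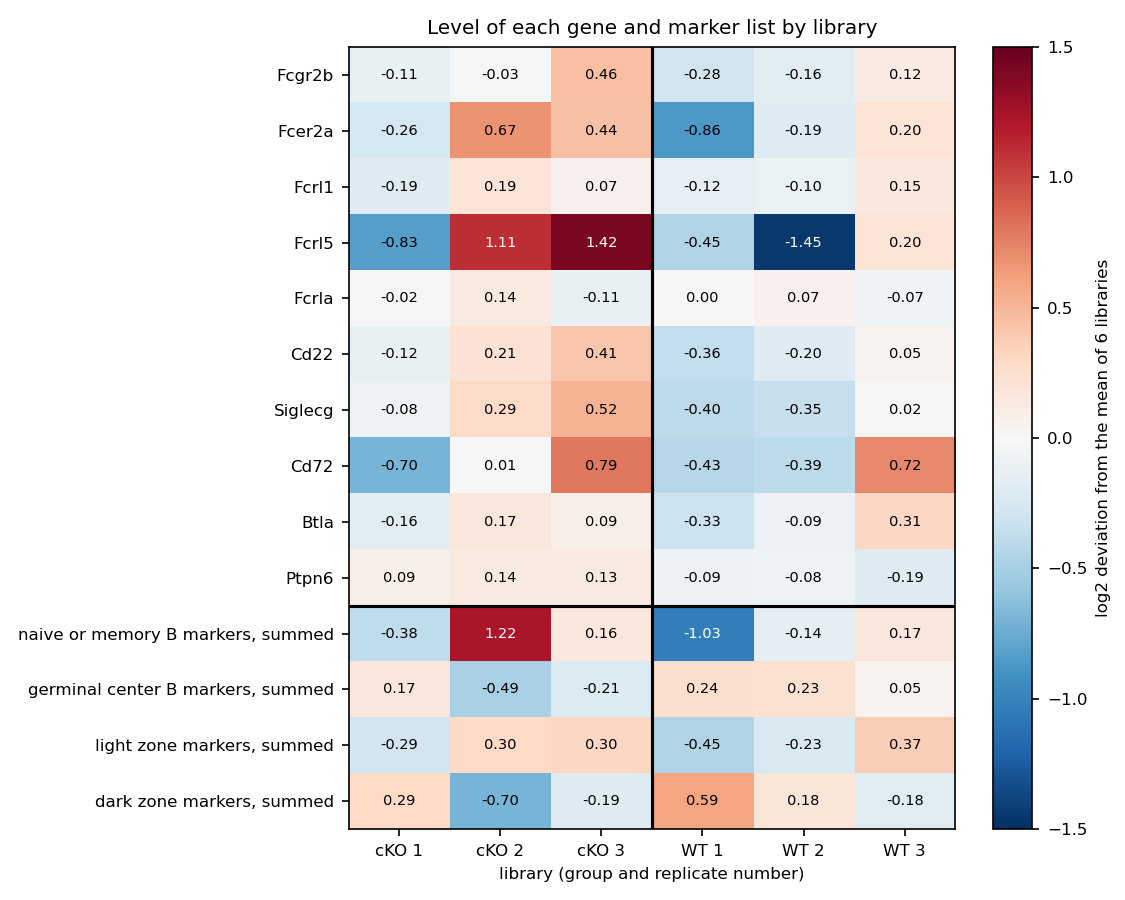
Log2 deviation of each of the 10 genes (above the line) and of 4 summed marker lists (below it) from their own mean over the 6 libraries, with cKO libraries at the left and WT libraries at the right. Red is above and blue below the mean. WT 1 is blue for 9 of the 10 genes and near 0 for Fcrla, and naive or memory B markers reach 1.22 in cKO 2 and -1.03 in WT 1.

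Marker lists describe what else the libraries held. GC B markers summed to 8716 to 13735 in cKO and 12641 to 14467 in WT, with 9 of 10 log2 fold changes negative. The 13 dark zone markers, genes of dividing GC B cells, summed to 12738 to 25338 in cKO and 18290 to 31058 in WT, with 13 of 13 negative and a median of -0.49. Both sums were lowest in cKO replicate 2, and their part in the levels of the 10 genes was not tested. Plasma cell markers summed to 8750 to 17942 in cKO and 9961 to 14455 in WT. Dendritic cell markers summed to 195 to 321 in cKO and 321 to 397 in WT, mostly from Flt3. NK cell markers reached at most 148 in cKO and 105 in WT, neutrophil markers 105 in cKO and 94.7 in WT, and erythroid markers 104 in cKO and 20.5 in WT. The summed level of the 10 genes was 17716, 22205 and 23629 in cKO replicates 1 to 3, against 15269, 16905 and 19553 in WT replicates 1 to 3, with Cd22 and Ptpn6 making up most of it.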

How the data were processed

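The data are 6 RNA sequencing libraries, 3 cKO and 3 WT, grouped by their titles. Total RNA was extracted from sorted cells with a column kit, per the labels' protocols. Tools listed in the submitters' processing notes are DESeq2, HTSeq, SAMtools, TopHat2, HISAT and HISAT2, without version or role, and the build is mm10. No source used here gives the annotation or strand setting.

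The authors deposited a signal per gene, a read count over the library's size factor. Every value in a library was a whole multiple of its smallest value (tolerance 0.01 read), so reads were recovered. The authors also deposited a log2 fold change, a test score, a p-value and an adjusted p-value, quoted as theirs. Positions and exon lengths come from GENCODE M21 (GRCm38, which mm10 names); 19589 of 19680 gene identifiers were found.

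The deposited values are not raw counts, so limma 3.58.1 (R 4.3.3, mean-variance trend) was fitted to log2(value + 1) for 14678 genes (mean normalized count 1 or more), genotype alone in the model, with Benjamini-Hochberg adjustment at 0.05. Fold changes on this scale understate changes of low genes. edgeR 4.0.16 (quasi-likelihood) and DESeq2 1.42.0 on recovered reads, other scalings, filters and pseudocounts, and fits with libraries left out were alternatives. The main limma fit and edgeR were tested on simulated data, and the other alternatives were not. The planted changes were larger than most estimates of the 10 genes, so recovery of changes of that size was not tested. The 10 genes, the lists and the tests were chosen with earlier results of these data known. Named genes are the 10, Senp1, the sort genes, the 4 genes of smallest p per pathway list, the abundant markers and the closest gene to each of the 10. Some genes that meet this rule are not reported here. Cd3e, Cxcl13, Madcam1, C4b, Tesk1 and Gm2962 were named besides these, after their values were seen, to check the cells or overlapping genes.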

Additional observations from a re-analysis of the deposited data

How the results depend on the processing

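Over 19 alternatives (18 with a p-value), 0 of the 10 genes and 0 pathway list genes were called in any. Among all genes DESeq2 called 20, a term for replicate 1 called 3 and the replicate block 1, in place of 0. The number of the 10 genes at an unadjusted p under 0.05 was 1 over all libraries (5.15% of all genes), 3 with the replicate block (9.08%), 4 with a term for replicate 1 (9.16%) and 3 in replicates 2 and 3 alone (7.36%); with 1 library left out it ranged from 0 to 4 (2.34% to 9.26%). The labels call the mice paired but do not say that a replicate number marks a pair, and the numbers were not taken as pairs: the deviations of same-numbered libraries from their group means correlated at 0.49, 0.055 and 0.20 for replicates 1 to 3, and cKO replicate 2 correlated best with WT replicate 3 (0.17). With the block the unadjusted p was 0.0023 for Siglecg (0.029 without it) and 0.0029 for Fcer2a (0.099 without it), and their adjusted p 0.319 and 0.333.

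Signs turned in Fcrl1, Fcrla, Cd72 and Btla, whose estimates over all libraries were near 0. Within replicate 1 the sign also turned in Fcrl5, whose estimate over all libraries was 1.13. With library totals the log2 fold change was -0.035 for Fcrl1, -0.075 for Fcrla, -0.010 for Cd72 and -0.0097 for Btla, and with TMM scaling -0.011 for Fcrla. These scalings move all genes alike: the median over all genes was -0.078 and -0.017, against -0.0019 as deposited. Within replicate 1, with no test, it was -0.072 for Fcrl1, -0.38 for Fcrl5, -0.020 for Fcrla and -0.27 for Cd72. With single libraries left out it ranged from -0.040 to 0.15 for Fcrl1, -0.063 to 0.060 for Fcrla, -0.31 to 0.45 for Cd72 and -0.076 to 0.24 for Btla. The cause of the turns with libraries left out or within replicate 1 was not tested. Fcgr2b, Fcer2a, Siglecg, Cd22 and Ptpn6 stayed positive in all 19 alternatives and Fcrl5 in 18. Depth limits Fcrl5, with 5 to 23 reads per library.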
